A study of Homo sapiens with 8 samples.

Results

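GAS5, SNHG1, SNHG3, SNHG5, SNHG6, SNHG7, SNHG8, SNHG12, SNHG15 and ZFAS1 make noncoding host transcripts of small nucleolar RNAs (snoRNAs). Their levels were followed in 8 RNA sequencing libraries of cells labelled hTERT-RPE1. These 10 members were taken by symbol. All 10 were found among 57884 listed genes, and all 10 were among the 17994 that passed the filter on low values and were tested. This line came from human retinal pigment epithelium and was immortalised by telomerase expression. All libraries carry the label of this line, and there were 4 groups. Cells labelled ATF3 knockout (Ko) were in serine/glycine-free medium for 8 h or in complete medium (0 h). Wild-type (Wt) cells were in serine/glycine-free medium for 8 h or in complete medium (0 h). Each medium comparison is therefore also one of 8 h against 0 h, and the medium and the time cannot be told apart. ATF3 is a stress-induced transcription factor. Each group had 1 library from each of 2 independent experiments, called batches in the labels and run a week apart, so every group has n = 2. The knockout allele, the number of clones behind each genotype, and whether the complete-medium cultures were also washed and given fresh medium could not be learned from the labels. All values are in FPKM, the estimated fragments of a gene scaled to transcript length and library total. The tables of the batches were normalized separately, and comparisons were therefore made within a batch.

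A snoRNA host gene is transcribed and spliced like an mRNA gene, and its introns are trimmed into snoRNAs that guide ribose methylation (C/D box snoRNAs) or pseudouridylation (H/ACA box snoRNAs) of ribosomal RNA. In noncoding hosts the spliced exons carry short open reading frames only. Ribosomes that read them stop far ahead of an exon junction, which marks the RNA for nonsense-mediated decay (NMD), so these RNAs are known to be short-lived and to accumulate when translation or NMD is blocked. Many hosts also start with a C followed by a run of pyrimidines, the TOP start shared with ribosomal protein mRNAs.

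The starts of the members differ in this feature, and the windows of 60 bases below show it, 20 bases before to 40 bases from the RefSeq transcription start (GRCh38.p14, read on the strand of the gene). Capitals mark the start base, or the whole run where the start is a C followed by at least 4 pyrimidines. They lie at chr1:173869006-173869065 (GAS5, minus strand), chr11:62855846-62855905 (SNHG1, minus), chr1:28505923-28505982 (SNHG3, plus), chr6:85678694-85678753 (SNHG5, minus), chr9:136728145-136728204 (SNHG7, minus), chr4:118278742-118278801 (SNHG8, plus), chr1:28581834-28581893 (SNHG12, minus) and chr20:49278622-49278681 (ZFAS1, plus).
GAS5: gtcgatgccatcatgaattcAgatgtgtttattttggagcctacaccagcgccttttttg
SNHG1: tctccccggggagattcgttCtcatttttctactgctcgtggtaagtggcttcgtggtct
SNHG3: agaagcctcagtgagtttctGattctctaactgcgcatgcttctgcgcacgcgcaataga
SNHG5: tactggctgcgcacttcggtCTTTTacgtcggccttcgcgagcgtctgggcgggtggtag
SNHG7: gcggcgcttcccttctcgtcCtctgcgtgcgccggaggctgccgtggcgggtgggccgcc
SNHG8: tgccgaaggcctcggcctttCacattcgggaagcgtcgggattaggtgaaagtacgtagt
SNHG12: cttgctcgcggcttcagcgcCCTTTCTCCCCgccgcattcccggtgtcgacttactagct
ZFAS1: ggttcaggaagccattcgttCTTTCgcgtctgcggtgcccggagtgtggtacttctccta

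Of the 8 members in the RefSeq promoter table, 3 (SNHG5, SNHG12 and ZFAS1) had a start of this kind, against 4.07% of the 35116 promoters in that table. The run was 11 bases long in SNHG12 and 5 in SNHG5 and in ZFAS1. Only an unbroken run at the start shown was marked. Other starts of these genes are not shown, so a start without the run does not mean that the gene has none. In the 250 bases before to 50 bases after the start, the letters TGATGNAA, in which ATF4 and its partners are known to bind, were found in 0 of 8 members on either strand, against 3.62% of all promoters. The E-box CACGTG was found in SNHG7 alone of the 8, against 7.26% of all promoters. The motif searches do not overlap in their letters, and a match or its lack says nothing here about binding. SNHG6 and SNHG15 are named only.

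The exon structure was read from GENCODE 29. The members have 82 spliced transcripts that are not classed as retained introns, from 240 bases (SNHG1) to 3116 bases (SNHG15) long and with up to 13 exons (GAS5). In 73 of them (89.0%) the reading frame of the most upstream ATG ended at least 50 bases before the last exon junction, against 17700 of 24862 (71.2%) other spliced long noncoding transcripts. That frame had a median of 35 codons. All 10 GAS5 transcripts, all 7 of SNHG12 and all 4 of SNHG6 had this layout, as did 18 of 19 in SNHG5, 11 of 12 in SNHG1, 9 of 10 in ZFAS1 and 8 of 10 in SNHG15. The share was 3 of 4 in SNHG7 and 3 of 5 in SNHG8, and the single SNHG3 transcript, with 3 exons over 2201 bases, did not. Transcripts of a gene share exons and are not independent.

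Some facts of the whole series bear on the members. Across tested genes, which are not independent replicates, r was 0.920 to 0.957 between libraries within a batch and 0.768 to 0.815 between batches. Absolute depth is unknown, and FPKM sums ran from 2429662 to 3148153. ATF3 itself, the gene of the genotype label, was at 4.45 FPKM (serine/glycine-free) and 3.38 FPKM (complete) in cells labelled knockout, against 6.46 and 3.47 FPKM in wild type, in batch 1. In batch 2 it was at 57.3 and 20.8 FPKM in cells labelled knockout, against 18.0 and 3.65 FPKM in wild type, so its mRNA was higher in the libraries labelled knockout there, and genotype is given below as labelled. Some cell type markers differed between the batches in both genotypes, and the labels do not settle whether the same line was used in both. KRT19, an epithelial keratin, was at 306 and 375 FPKM in cells labelled knockout and 216 and 321 FPKM in wild type in batch 2, against 0 to 0.741 FPKM in the 4 libraries of batch 1, and SPARC, a mesenchymal matrix protein gene, at 0.0903 to 1.66 FPKM in batch 2 against 343 to 429 FPKM in batch 1. Other markers of the same lists ran the other way. In wild type KRT8, an epithelial keratin, was at 34.5 (serine/glycine-free) and 55.0 (complete) FPKM in batch 2, against 213 and 249 FPKM in batch 1. KRT18 was also lower in batch 2 in wild type. FN1, of the mesenchymal list, was at 58.7 and 44.5 FPKM in batch 2 wild type, against 36.1 and 34.5 FPKM in batch 1. In cells labelled knockout FN1 was higher in batch 2 as well. The libraries labelled knockout of batch 2 stood furthest apart. The summed level of 10 epithelial markers was 953 and 1178 FPKM in those 2, against 224 to 577 FPKM in the other 6 libraries, and that of 8 mesenchymal markers was 186 and 178 FPKM, against 685 to 1765 FPKM. All 10 epithelial and 7 of 8 mesenchymal markers reached 1 FPKM in some library. Of 8 markers of retinal pigment epithelium only MITF, BEST1 and PMEL did, their list summed to 3.01 to 7.99 FPKM per library, and OTX2 was listed at 0 throughout. Of 5 immune markers only CD68 reached 1 FPKM, and the list summed to 1.73 to 15.5 FPKM. In bulk RNA, fewer cells of a type and less RNA per cell cannot be told apart.

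The members held 1.32% to 1.59% of the FPKM sum in cells labelled knockout and 0.931% to 1.75% in wild type. By median over the 8 libraries the order was SNHG3 (15441 FPKM), SNHG1 (6313), SNHG7 (6230), GAS5 (4824), SNHG8 (2261), SNHG12 (1458), SNHG5 (655), SNHG15 (618), ZFAS1 (127) and SNHG6 (95.3). This order sets levels across separately normalized tables. Neighbours in the order had overlapping ranges at 8 of 9 steps, and the exception was the step between SNHG15, with a lowest library of 394 FPKM, and ZFAS1, with a highest of 384 FPKM. SNHG3 alone held 20.8% to 51.0% of the members' summed FPKM in a library.

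A host's FPKM can include fragments of the snoRNAs in its introns, and the sources used here do not say how the counting treated them. GENCODE 29 places 25 snoRNAs inside the members on the same strand, and 6 of them matched a listed gene by Ensembl ID. SNHG6 and ZFAS1, whose placed snoRNAs (1 and 3) all have a row of their own, lay between 60.1 and 384 FPKM. The 7 members with at least 1 placed snoRNA without such a row reached 18798 FPKM, and their lowest value was 34.2 FPKM, in SNHG5. This search placed no snoRNA inside GAS5, although GAS5 is known as a host, so its snoRNAs are missing from these counts. SNORD78, whose deposited locus overlaps that of GAS5, was listed at 0 in all 8 libraries. Host RNA and intronic snoRNA cannot be told apart in these rows, and the part of snoRNA fragments in a member's level was not tested. The matched snoRNA rows differed widely in level. SNORA73B, inside SNHG3 and one of the U17 snoRNAs used in pre-rRNA cleavage, was at 15447 to 32482 FPKM. SNORD12, inside ZFAS1, was at 1331 to 3398 FPKM, and SNORD99, inside SNHG12, at 631 to 2877 FPKM. SNORD12B, also inside ZFAS1, ran from 0 to 627 FPKM. SNORD12C, inside the same host, was at 279 FPKM in serine/glycine-free wild type of batch 1 and at 0 in every other library. SNORD87, inside SNHG6, was listed at 0 throughout.

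**Figure D1:**
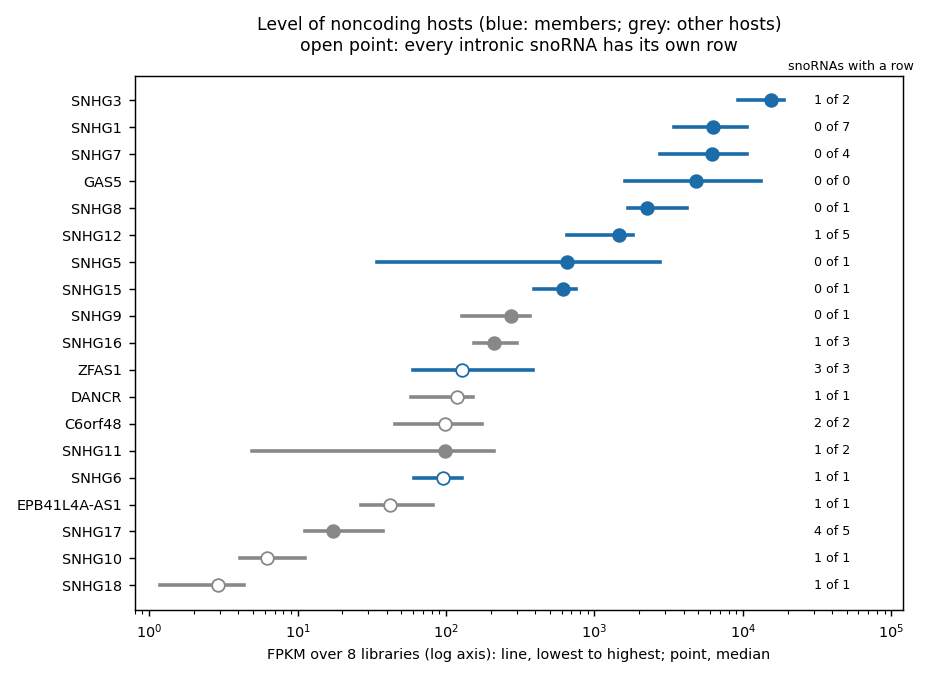
Median (point) and range (line) of FPKM over 8 libraries, on a log axis, for the 10 members (blue) and 9 other noncoding snoRNA hosts (grey), with the number of snoRNAs inside each host in GENCODE 29 that have a row of their own. Open points are hosts whose snoRNAs all have a row, and SNHG6 and ZFAS1, the members among them, are the lowest members, at medians of 95.3 and 127 FPKM. The snoRNAs of GAS5, a known host, were missed by the search and are not counted.

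The first question is how host transcripts stood after 8 h without serine and glycine. ZFAS1 was the only member higher in serine/glycine-free than in complete medium in all 4 pairs of libraries, by 1.50 to 1.87 times, and no member was lower in all 4. SNHG5 showed the widest swings, 0.0124 to 0.0519 times the complete-medium level in 3 pairs and 36.3 times that level in the other. The remaining 8 members had mixed signs. No member passed the test in either genotype or in their average. The hg19 positions given below with the members are deposited loci, which can span several overlapping genes.

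ZFAS1 (ENSG00000177410, hg19 chromosome 20, 47835884 to 47905797), a transcript antisense to ZNFX1 whose introns hold the SNORD12 group of C/D box snoRNAs, lay in the same direction in each pair. In batch 1 it was at 101 FPKM (serine/glycine-free) and 60.1 FPKM (complete) in cells labelled knockout, and at 146 and 78.2 FPKM in wild type. In batch 2 it was at 384 and 223 FPKM in cells labelled knockout, and at 163 and 109 FPKM in wild type. Each serine/glycine-free library lay above its complete-medium partner, yet over both batches the groups overlap, since batch 2 complete medium in cells labelled knockout exceeds 3 serine/glycine-free libraries. Averaged over genotypes the log2 fold change of ZFAS1 was 0.75 ± 0.34 (SE, limma adjusted p = 0.541), with 0.76 ± 0.48 in cells labelled knockout and 0.74 ± 0.48 in wild type. The fit blocks on batch alone, so these SEs also hold genotype differences that vary between batches. With a block per genotype and batch the wild-type value was 0.74 ± 0.12 (limma adjusted p = 0.309). Being higher in all 4 pairs was shared by 14.6% of tested genes, and being lower in all 4 by 11.4%. DDX27, an RNA helicase gene whose deposited locus overlaps that of ZFAS1 on the same strand, was also higher in 4 of 4 pairs, with a log2 fold change of 0.40 ± 0.13 (limma adjusted p = 0.403). ZNFX1, on the opposite strand, was higher in 1 of 4 pairs (−0.18 ± 0.23, limma adjusted p = 0.862). Strand use in the counting is not stated, so reads of overlapping genes cannot be told apart. Of the snoRNA rows inside ZFAS1, SNORD12 was higher in 1 of 4 pairs and had a log2 fold change of −0.29 ± 0.20 (limma adjusted p = 0.685).

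SNHG5 (ENSG00000203875, hg19 chromosome 6, 86370710 to 86388451), the host of the U50 C/D box snoRNAs, fell into 2 sets of values within each batch. In batch 1 it was at 1240 FPKM (serine/glycine-free) and 34.2 FPKM (complete) in cells labelled knockout, against 69.0 and 1329 FPKM in wild type. In batch 2 it was at 50.7 and 2085 FPKM in cells labelled knockout, against 34.2 and 2746 FPKM in wild type. Low values, 34.2 to 69.0 FPKM, stood in 3 of 4 serine/glycine-free libraries and in 1 complete-medium library, and the other 4 libraries were at 1240 FPKM or more. The highest library was 38.9 times the lowest in batch 1 and 80.4 times in batch 2. Among tested genes with a batch mean of 10 FPKM or more, 2.12% in batch 1 and 2.92% in batch 2 spanned over 10 times. In wild type the log2 fold change was −5.27 ± 2.19 (limma adjusted p = 0.900), in cells labelled knockout −0.096 ± 2.19 (adjusted p = 1.00), and averaged −2.68 ± 1.55 (adjusted p = 0.622). The media did not overlap in wild type and did in cells labelled knockout, where the batch 1 pair ran the other way.

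**Figure D2:**
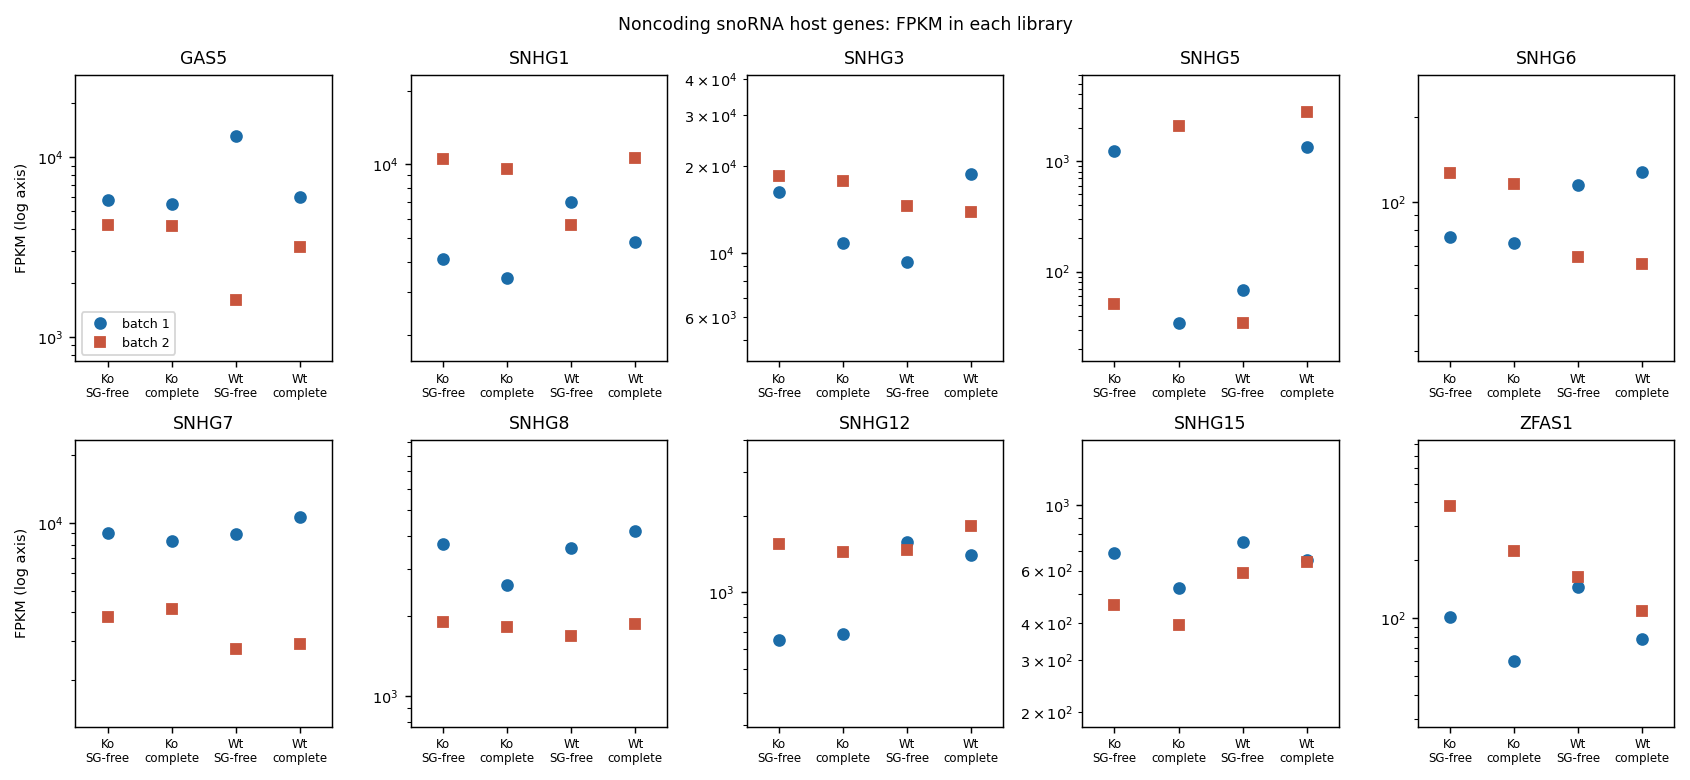
FPKM of each member in each of the 8 libraries, on log axes, by group, with circles for batch 1 and squares for batch 2. ZFAS1 is higher in serine/glycine-free than in complete medium within each genotype and batch, and SNHG5 alternates between 34.2 to 69.0 FPKM and 1240 to 2746 FPKM.

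GAS5 and SNHG1 are known as hosts of large groups of C/D box snoRNAs. GAS5 (ENSG00000234741, hg19 chromosome 1, 173832386 to 173872687), an RNA named for its accumulation in growth-arrested cells, was at 5815 (serine/glycine-free) and 5471 (complete) FPKM in cells labelled knockout in batch 1, against 13137 and 6028 FPKM in wild type. Its batch 2 levels were 4178 and 4177 FPKM in cells labelled knockout, against 1615 and 3155 FPKM in wild type. Serine/glycine-free wild-type cells thus held both the highest and the lowest GAS5 library of the series, 2.18 times the complete-medium level in batch 1 and 0.512 times in batch 2. The log2 fold change in wild type was 0.079 ± 0.65 and in cells labelled knockout 0.044 ± 0.65 (limma adjusted p = 1.00 in both). SNHG1 (ENSG00000255717, hg19 chromosome 11, 62619460 to 62623386), the U22 host gene, was at 4096 and 3436 FPKM in cells labelled knockout in batch 1, against 7005 and 4803 FPKM in wild type. Batch 2 gave 10491 and 9608 FPKM for SNHG1 in cells labelled knockout, against 5621 and 10598 FPKM in wild type. As for GAS5, serine/glycine-free wild-type cells were above complete medium in batch 1 (1.46 times) and below it in batch 2 (0.530 times), while the pairs labelled knockout stood at 1.19 and 1.09 times.

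SLC3A2, which encodes the heavy chain of amino acid transporters, starts within 2 kb of SNHG1 on the opposite strand. It was at 221 (serine/glycine-free) and 77.9 (complete) FPKM in cells labelled knockout, against 275 and 101 FPKM in wild type, in batch 1. Batch 2 had SLC3A2 at 284 and 137 FPKM in cells labelled knockout, against 216 and 64.4 FPKM in wild type. All 4 pairs of SLC3A2 were higher without serine and glycine, as in 14.6% of tested genes (log2 fold change 1.43 ± 0.25, limma adjusted p = 0.212). SNHG1 had 0.0025 ± 0.33 (limma adjusted p = 0.999), and neither gene passed the test. The difference between the genes was not tested.

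SNHG6 (ENSG00000245910, hg19 chromosome 8, 67782984 to 67838633), the host of the C/D box snoRNA SNORD87, was at 75.7 (serine/glycine-free) and 71.9 (complete) FPKM in cells labelled knockout in batch 1, against 115 and 128 FPKM in wild type. In batch 2 SNHG6 was at 127 and 115 FPKM in cells labelled knockout, against 64.1 and 60.7 FPKM in wild type. Serine/glycine-free libraries stood at 0.898 to 1.10 times their complete-medium partners, and SNORD87 was listed at 0 in all 8 libraries. The averaged log2 fold change was 0.033 ± 0.35 (limma adjusted p = 0.995).

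SNHG3, SNHG7, SNHG8 and SNHG15 are known as hosts of H/ACA box snoRNAs. SNHG3 (ENSG00000242125, hg19 chromosome 1, 28832455 to 28865812) was at 16286 (serine/glycine-free) and 10838 (complete) FPKM in cells labelled knockout in batch 1, against 9309 and 18798 FPKM in wild type. Its batch 2 values were 18441 and 17744 FPKM in cells labelled knockout, against 14597 and 13866 FPKM in wild type. SNHG3 was thus lower without serine and glycine in wild-type batch 1 only, and its averaged log2 fold change was −0.074 ± 0.25 (limma adjusted p = 0.965). RCC1, the nuclear exchange factor gene that shares the deposited locus of SNHG3 on the same strand, was lower in 4 of 4 pairs (−0.20 ± 0.16, limma adjusted p = 0.735). Other genes whose deposited loci overlap a member had small averaged differences, 0.0034 ± 0.22 for GAS5-AS1 and 0.25 ± 0.18 for ZBTB37 at GAS5, −0.35 ± 0.20 for FAM69B at SNHG7, 0.19 ± 0.20 for TRNAU1AP at SNHG12 and −0.20 ± 0.30 for the pseudogene PRDX3P2 at SNHG3 (limma adjusted p from 0.621 to 0.999).

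SNHG7 (ENSG00000233016, hg19 chromosome 9, 139607022 to 139622636), host of SNORA17 snoRNAs, was at 9033 (serine/glycine-free) and 8325 (complete) FPKM in cells labelled knockout in batch 1, against 8955 and 10595 FPKM in wild type. In batch 2 it was at 3825 and 4134 FPKM in cells labelled knockout, against 2747 and 2899 FPKM in wild type. SNHG7 pairs ran from 0.845 to 1.08 times between media, and the mean of batch 2 was 0.369 times that of batch 1, the lowest such ratio among the members, across separately normalized tables. SNHG8 (ENSG00000269893, hg19 chromosome 4, 119199864 to 119200978), host of SNORA24, was at 3740 and 2617 FPKM in cells labelled knockout, against 3608 and 4177 FPKM in wild type, in batch 1. In batch 2 SNHG8 was at 1904 and 1821 FPKM in cells labelled knockout, against 1688 and 1857 FPKM in wild type. It was the only member with opposite medium differences by genotype, higher in both pairs labelled knockout and lower in both wild-type pairs, a split in either direction seen in 6.31% of tested genes, and the interaction did not pass (0.46 ± 0.31, limma adjusted p = 1.00). SNHG15 (ENSG00000232956, hg19 chromosome 7, 45022622 to 45026560), host of SNORA9, was at 688 and 525 FPKM in cells labelled knockout, against 752 and 650 FPKM in wild type, in batch 1, and at 461 and 394 FPKM in cells labelled knockout, against 591 and 644 FPKM in wild type, in batch 2. SNHG15 was higher without serine and glycine in 3 of 4 pairs, with an averaged log2 fold change of 0.18 ± 0.13 (limma adjusted p = 0.691).

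SNHG12 (ENSG00000197989, hg19 chromosome 1, 28879597 to 28909495) holds snoRNAs of both classes, among them the C/D box SNORD99. In batch 1 SNHG12 was at 649 (serine/glycine-free) and 687 (complete) FPKM in cells labelled knockout, against 1588 and 1402 FPKM in wild type. In batch 2 it was at 1556 and 1440 FPKM in cells labelled knockout, against 1477 and 1824 FPKM in wild type. Both batch 1 libraries labelled knockout were the lowest of the 8, and the media overlapped in both genotypes (averaged log2 fold change −0.024 ± 0.25, limma adjusted p = 0.994).

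Over the 10 members, limma called 0 in wild type, where 0.0556% of tested genes were called, 0 in cells labelled knockout, where 0.0167% were, and 0 in the average, where 0.133% were. At an unadjusted p under 0.05 the members counted 0 in each of these, against 5.64%, 5.59% and 10% of tested genes. The median log2 fold change of the members was −0.11 in wild type (0.023 over all tested genes), 0.15 in cells labelled knockout (0.0056) and 0.018 in the average (0.016). In single pairs the members' median log2 difference was 0.32 with 9 of 10 higher in the batch 1 pair labelled knockout, 0.088 with 8 of 10 higher in the batch 2 pair labelled knockout, 0.013 with 5 higher in wild type of batch 1 and −0.13 with 3 higher in wild type of batch 2. Between 47.0% and 51.5% of tested genes were higher in these pairs.

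**Figure D3:**
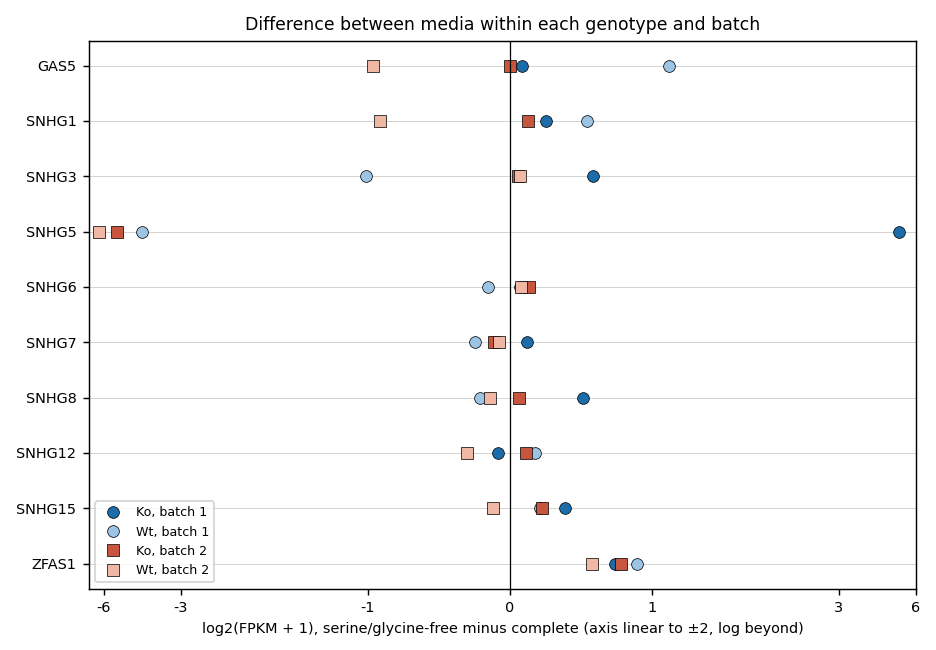
Difference in log2(FPKM + 1), serine/glycine-free minus complete, for each member in each genotype and batch (circles batch 1, squares batch 2, dark Ko, light Wt; the axis is linear near 0 and logarithmic beyond). ZFAS1 is right of 0 in all 4 pairs, and SNHG5 is far left in 3 pairs and far right in 1.

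The second question is how the members stood by ATF3 label. No member passed this test in either medium, and the signs of the differences varied between media and batches. In complete medium of batch 1 all 10 members were lower in cells labelled knockout than in wild type, by a median log2 difference of −0.58, where 44.5% of tested genes were higher. In complete medium of batch 2, 5 were higher and 5 lower (median 0.16). In serine/glycine-free medium 4 were higher and 6 lower in batch 1 (median −0.33), whereas 9 were higher and 1 lower in batch 2 (median 0.52). The complete-medium library labelled knockout of batch 1 had the lowest FPKM sum of the series, and the markers given above set batch 2 apart from batch 1 and its libraries labelled knockout furthest. Their part in these differences was not tested.

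GAS5, SNHG6 and ZFAS1 were lower in cells labelled knockout in both media of batch 1 and higher in both media of batch 2, a pattern of opposite signs found in 19.5% of tested genes. SNHG6 libraries labelled knockout were 0.659 (serine/glycine-free) and 0.562 (complete) times wild type in batch 1, and 1.98 and 1.90 times in batch 2. SNHG15 was the only member with 1 sign throughout, lower in cells labelled knockout in 4 of 4 pairs, as were 13.2% of tested genes, while 8.34% were higher in 4 of 4. Its log2 fold change was −0.24 ± 0.18 in serine/glycine-free medium (limma adjusted p = 0.813) and −0.51 ± 0.18 in complete medium (limma adjusted p = 0.857, unadjusted 0.0300).

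Limma called 0 of 10 members by genotype in serine/glycine-free medium, where 0.05% of tested genes were called, and 0 of 10 in complete medium, where 0.0333% were. At an unadjusted p under 0.05 the counts were 0 and 1 (SNHG15), against 5.86% and 4.78% of tested genes. SNHG12 had −0.61 ± 0.35 in serine/glycine-free medium and −0.68 ± 0.35 in complete medium (limma adjusted p = 0.801 and 0.857). The members' median log2 fold change was 0.15 in serine/glycine-free medium (−0.041 over all tested genes) and −0.27 in complete medium (−0.017). Without both batch 2 libraries labelled knockout these medians were −0.23 and −0.66. The difference of the medium effects between the genotypes, tested as an interaction, called 0 members, where 0.0611% of tested genes were called, and 0 members against 1.53% of tested genes at an unadjusted p under 0.05. Its median over the members was 0.21 (−0.020 over all tested genes), and it ran from −0.035 ± 0.91 for GAS5 to 5.17 ± 3.10 for SNHG5 (limma adjusted p = 1.00 for both).

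**Figure D4:**
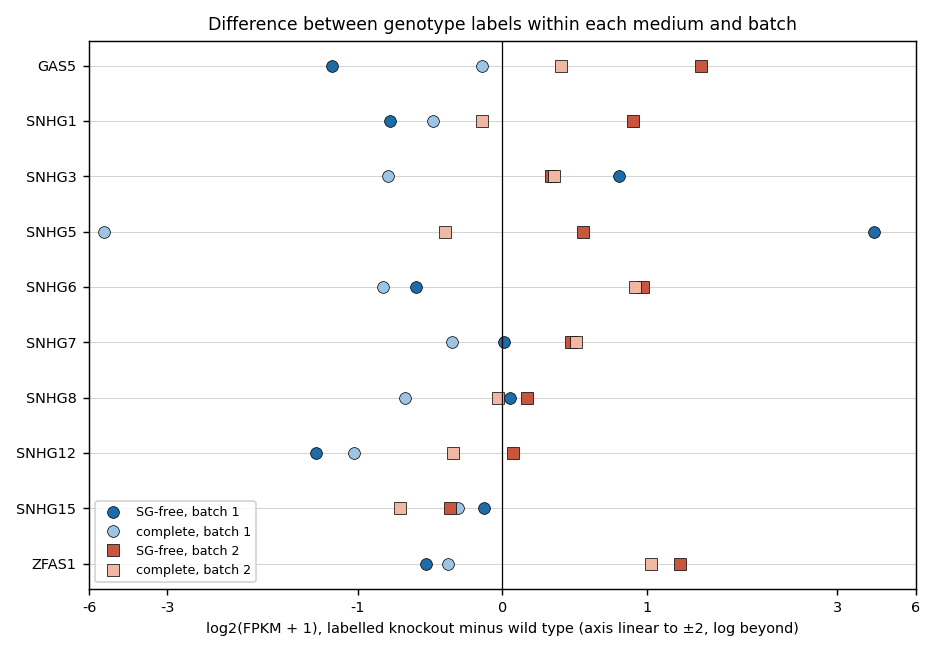
Difference in log2(FPKM + 1), labelled knockout minus wild type, for each member in each medium and batch (circles batch 1, squares batch 2, dark serine/glycine-free, light complete; the axis is linear near 0 and logarithmic beyond). GAS5, SNHG6 and ZFAS1 have their circles left and their squares right of 0, and SNHG15 has all 4 points left of 0.

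The members' profiles over the libraries were set beside each other. With each batch centred on its own mean, Pearson's r between pairs of members over the 8 libraries had a median of 0.40, with 36 of 45 pairs above 0. The highest value was between GAS5 and SNHG1 (0.93), then SNHG6 and SNHG7 (0.89), and the lowest between SNHG7 and SNHG15 (−0.62). These libraries share their scaling within a batch, so the values are descriptions. The share over pairs of other tested genes is not given, so the count cannot be read as a trait of the members. Against the mean profile of all members, SNHG8 and SNHG5 stood highest (r = 0.82 each) and SNHG15 lowest (0.052). That mean includes each member itself, and SNHG5, with the widest swings, weighs most in it. Among all other tested genes the profiles most like it, over the same 8 libraries, were those of RP11-10A14.3 (r = 0.98), GTF2IRD2 (0.95), PLAC9 (0.95), STX8 (0.94) and AC004057.1 (0.93). The highest library was at 1.32 FPKM for RP11-10A14.3 and at 28.4 FPKM for STX8.

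Other noncoding hosts were set beside the members. Of 19 listed, 11 were found and 9 tested, and limma called 0 of them in the averaged medium comparison, with 2 at an unadjusted p under 0.05. Their median log2 fold change was 0.26, and 3 were higher and 1 (SNHG18) lower in all 4 pairs. Among all tested genes 0.133% were called, 10% had an unadjusted limma p under 0.05, and 14.6% were higher and 11.4% lower in all 4 pairs. C6orf48 (also SNHG32), host of SNORD48 and SNORD52, was at 83.6 (serine/glycine-free) and 45.7 (complete) FPKM in cells labelled knockout, against 100.4 and 49.96 FPKM in wild type, in batch 1. Its batch 2 levels were 174 and 120 FPKM in cells labelled knockout, against 147 and 97.7 FPKM in wild type, a log2 fold change of 0.74 ± 0.15 (limma adjusted p = 0.266). EPB41L4A-AS1, host of SNORA13, had 0.97 ± 0.20 (adjusted p = 0.272) and SNHG10, host of the small Cajal body RNA SCARNA13, 0.44 ± 0.21 (adjusted p = 0.559), both higher in 4 of 4 pairs. SNHG17, host of the SNORA71 group, had 0.26 ± 0.15 (adjusted p = 0.638). Like ZFAS1, the hosts C6orf48, EPB41L4A-AS1 and SNHG10 have a row for each snoRNA placed inside them, as have SNHG6, DANCR and SNHG18, which were not higher in all 4 pairs.

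Protein-coding hosts, which make an mRNA beside their snoRNAs, included the 1 host that passed the test. HSPA8, the constitutive HSP70 chaperone and a host of C/D box snoRNAs, fell to 632 FPKM in serine/glycine-free medium against 1041 FPKM in complete medium in cells labelled knockout of batch 1, and to 324 against 1080 FPKM in wild type. Batch 2 had HSPA8 at 489 against 784 FPKM in cells labelled knockout and at 315 against 938 FPKM in wild type. The media did not overlap, and the averaged log2 fold change was −1.18 ± 0.11 (limma adjusted p = 0.0439). HSPA8 missed the threshold in 15 of 20 alternative fits, among them every one that left out a single library (adjusted p from 0.156 to 0.283), while the fold change stayed between −1.30 and −1.10. Of 24 coding hosts tested, 0 were called higher and 1 lower, the median was 0.10, and 11 were higher and 2 lower in 4 of 4 pairs. Among all tested genes 0.133% were called, and 14.6% were higher and 11.4% lower in 4 of 4 pairs. DKC1, the pseudouridine synthase of H/ACA particles, had 0.67 ± 0.099 (adjusted p = 0.140), WDR43, a ribosome assembly factor, 0.98 ± 0.15 (0.158), and HSPA9, the mitochondrial HSP70, 0.64 ± 0.099 (0.160), all higher in 4 of 4 pairs.

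Genes for the proteins of snoRNA particles (snoRNPs) and of NMD, and mRNAs that share the NMD or TOP features, were set beside the hosts in the same comparison. There 0.133% of all tested genes were called, 10% had an unadjusted limma p under 0.05, and 14.6% were higher in 4 of 4 pairs. Limma called 0 of 14 snoRNP protein genes (2 at an unadjusted p under 0.05), with a median log2 fold change of 0.12. Beside DKC1, NOP58, a core protein of C/D particles, had 0.51 ± 0.10 (adjusted p = 0.272), GAR1 of H/ACA particles 0.29 ± 0.14 (0.568) and the assembly ATPase RUVBL1 0.21 ± 0.11 (0.574). Of 17 NMD factors 0 were called (2 unadjusted), with a median of 0.038. The exon junction proteins MAGOH and RBM8A had 0.39 ± 0.11 (adjusted p = 0.360) and 0.33 ± 0.11 (0.426), and the decay factor SMG5 had 0.32 ± 0.13 (0.501). Of 17 mRNAs known as NMD-sensitive 0 were called (5 unadjusted), with a median of 0.30 and 8 higher in 4 of 4 pairs. The 4 with the smallest p were CARS, the cysteinyl-tRNA synthetase (1.22 ± 0.15, adjusted p = 0.0906), the stress gene GADD45A (0.99 ± 0.14, 0.136), the uridine phosphorylase UPP1 (1.12 ± 0.17, 0.158) and ATF4 (1.04 ± 0.18, 0.204), the transcription factor of the amino acid response. The parts of NMD and of the amino acid response in these differences were not tested.

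Of 19 mRNAs known for TOP starts 0 were called (1 unadjusted), with a median of 0.085. EEF2 had 0.32 ± 0.097 (adjusted p = 0.375), EEF1A1 0.27 ± 0.11 (0.503), EIF3E 0.23 ± 0.11 (0.546) and EEF1B2 0.25 ± 0.12 (0.549). Of 74 ribosomal protein genes 0 were called (2 unadjusted), with a median of 0.11 and 31 higher in 4 of 4 pairs, and RPL10A, RPL3, RPL4 and RPL5 had 0.33 ± 0.12, 0.26 ± 0.10, 0.34 ± 0.16 and 0.18 ± 0.093 (adjusted p from 0.445 to 0.591). ATF4 targets had a median of 1.48, with 5 of 21 called higher and 0 lower. For these lists too the shares over all tested genes were 0.133% called, 10% unadjusted and 14.6% higher in 4 of 4 pairs. SLC7A11, the cystine transporter subunit, rose by 2.19 ± 0.15 on the log2 scale (adjusted p = 0.0175), PCK2, a gluconeogenic enzyme of mitochondria, by 2.09 ± 0.15 (0.0199), SARS, the seryl-tRNA synthetase, by 1.43 ± 0.10 (0.0199) and TRIB3, a pseudokinase that restrains ATF4, by 2.80 ± 0.22 (0.0274). These 4 calls were lost in 10 (SLC7A11), 11 (PCK2), 12 (SARS) and 12 (TRIB3) of 20 alternative fits, with the log2 fold changes at 1.33 or more throughout.

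**Figure D5:**
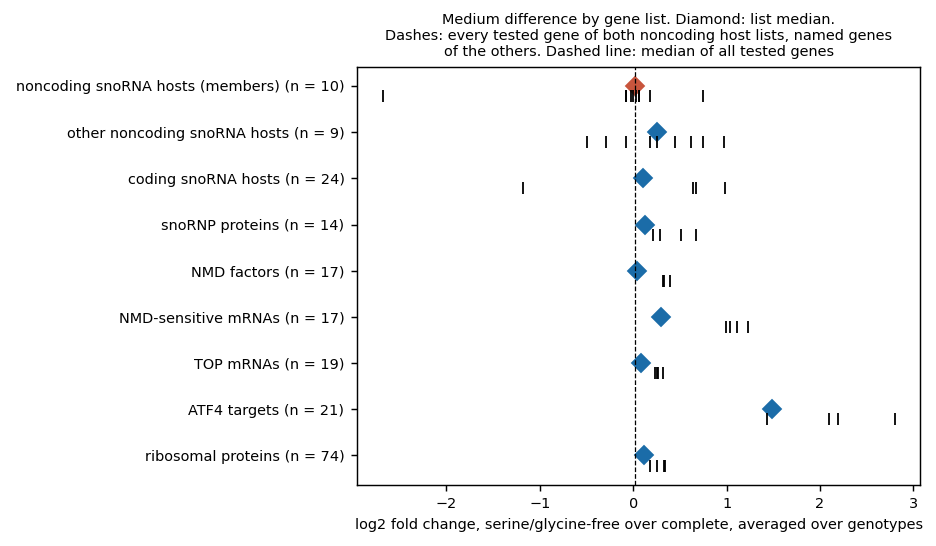
Median log2 fold change, serine/glycine-free over complete medium averaged over genotypes, of each gene list (diamonds; dashes are single genes). The members (top row) have a median of 0.018 with SNHG5 at −2.68 and ZFAS1 at 0.75, and the ATF4 targets a median of 1.48.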

How the data were processed

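The authors deposited FPKM values for 57884 Ensembl genes in 2 tables, 1 per batch, with 4 libraries each. TopHat, Cufflinks, Cuffdiff and hg19 are named per the submitters' processing notes, without versions, settings or strand use. FPKM is scaled to transcript length and library total, so short RNAs take large values, depth is unknown, and an exact 0 can be a failed estimate. The tables were normalized separately. Deposited locus starts count from 0 (tested against gene lengths) and are written 1-based, and a locus can span several overlapping genes. In all, 2263 rows share a symbol.

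The filter on low values kept genes that reached an FPKM of 1 in 2 or more libraries, 17994 in all. Limma 3.58.1 in R 4.3.3 fitted log2(FPKM + 1), which understates changes of low genes, by 4 group means with batch as a block and a trended prior (3 residual and 2.97 prior degrees of freedom), with two-sided p-values and the Benjamini-Hochberg adjustment across the tested genes (threshold 0.05). The p-values rest on 2 independent experiments. Since the block is batch alone, SEs of the medium comparisons also hold genotype differences that vary between batches. The series text states that equal replicate numbers mark 1 batch of treated cells, and libraries of 1 number deviated together from their group means (r = 0.650 to 0.775). Fold changes are serine/glycine-free over complete and labelled knockout over wild type. The fits were tested on simulated data.

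Gene types, strands, transcripts and snoRNA positions came from GENCODE 29 by Ensembl ID (95.8% of tested genes matched), and its coordinates were not joined to hg19 loci. Promoter sequences are from RefSeq (GRCh38.p14).

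The members and lists were chosen with earlier results of these data known. Named genes are all members, up to 4 genes per list with the smallest p in the averaged medium comparison, the 5 most like profiles, overlapping or adjacent genes, and ATF3. Of the genes this rule names, 1 is not reported here. Alternatives varied the pseudocount, filter, scaling, genes tested, block, prior and libraries.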

Additional observations from a re-analysis of the deposited data

Results flagged for a closer look

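Of 58 members and named genes examined, 2 had medium differences that ran one way in both batches of 1 genotype and the other way in both batches of the other. SNHG8 was higher without serine and glycine in cells labelled knockout, at 3740 against 2617 FPKM in complete medium of batch 1 and 1904 against 1821 FPKM in batch 2. In wild type it was lower, at 3608 against 4177 FPKM and 1688 against 1857 FPKM. The difference of these effects was tested as an interaction and did not pass (0.46 ± 0.31 on the log2 scale, limma adjusted p = 1.00).

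SNORD99, the C/D box snoRNA row inside SNHG12, ran the other way. It was lower without serine and glycine in cells labelled knockout, at 1065 against 2877 FPKM in batch 1 and 631 against 1551 FPKM in batch 2. In wild type it was at 1245 against 990 FPKM and 984 against 950 FPKM. The interaction was −1.55 ± 0.34 (limma adjusted p = 1.00), while its host SNHG12 had an interaction of 0.077 ± 0.49. Of tested genes 6.31% had such opposite signs.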

How the results depend on the processing

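No member was called in any of 1220 values under alternatives. The smallest adjusted p was 0.0927, for ZFAS1 in the averaged medium comparison with a block per genotype and batch. Of these values 1101 had the direction of the reported fit and 119 had the other direction, 89 of these when 1 library was left out. Many of the 1220 values could not change direction. Other filters, tested genes, blocks or priors leave the fold change as it is, as does leaving out a library outside the comparison. The count of matching directions is therefore no measure of stability. ZFAS1 and SNHG15 in the averaged comparison had positive values throughout, 0.43 to 1.06 and 0.069 to 0.28, and SNHG5 negative ones, −4.53 to −0.063. Depth, which is unknown, and 2 experiments limit what these tests can call. Fits without both batch 2 libraries labelled knockout, without snoRNA rows, and all repeats for genes beside the members were chosen after seeing the data.

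The batch pairs the libraries. With no replicate block the genes called fell to 1 in the averaged comparison (24 with the block) and to 3 in the interaction (11 with it), and no call of a member changed. The counts of genes called over the whole table moved in other settings too. In the wild-type medium comparison (10 as reported) they were 0 with no filter, 6 among protein-coding genes and members, 1 with the groups compared alone and 1 without both batch 2 libraries labelled knockout. In cells labelled knockout (3) they were 5 with a pseudocount of 5, a block per genotype and batch or no trend, 78 with no filter, 1 among protein-coding genes and 0 without both batch 2 libraries. In the averaged comparison (24) they were 2 with a pseudocount of 0.1, 82 with no filter, 15 at a mean FPKM of 1 or more, 39 among protein-coding genes, 13 with no trend and 0 without both batch 2 libraries. In the genotype comparisons they were 64 and 39 with no filter (9 as reported in serine/glycine-free medium and 6 in complete medium), 0 and 0 among protein-coding genes, 3 and 0 with the groups compared alone, and 0 and 2 without both batch 2 libraries. In the interaction (11) they were 3 and 7 with pseudocounts of 0.1 and 5, 77 with no filter, 7 at a mean FPKM of 1 or more, 0 among protein-coding genes, 7 with blocks by genotype and batch, and 1 if both batch 2 libraries are left out. Leaving out 1 library gave 8 to 19 in wild type, 3 to 13 in cells labelled knockout, 0 to 21 in the average, 2 to 14 in each genotype comparison and 3 to 9 in the interaction. The cause was not tested.

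The members' median moved to 0.32 in the medium comparison of cells labelled knockout and to 0.31 in the interaction without both batch 2 libraries labelled knockout. By genotype it then turned to −0.23 in serine/glycine-free medium (0.15 as reported) and went to −0.66 in complete medium (−0.27 as reported). Leaving out 1 library it ran from −0.42 to 0.24 in wild type, −0.23 to 0.58 in cells labelled knockout, −0.20 to 0.20 in the average, −0.26 to 0.54 and −0.50 to 0.23 in the genotype comparisons (serine/glycine-free, complete) and −0.17 to 0.60 in the interaction.

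Values of opposite sign were small under other scalings. Quantile normalization gave 0.079 for SNHG8 and −0.038 for SNHG15 in wild type, −0.014 for SNHG7 and −0.054 for SNHG12 in cells labelled knockout, −0.041 for SNHG1 and −0.045 for SNHG6 in the average, 0.020 for SNHG8 by genotype in complete medium, and 0.0024 for GAS5, −0.020 for SNHG12 and −0.051 for ZFAS1 in the interaction. Centring on the median gave −0.0051 for SNHG15 in wild type, −0.0060 for GAS5, −0.047 for SNHG7 and −0.035 for SNHG12 in cells labelled knockout, and −0.047 for SNHG1 and −0.017 for SNHG6 in the average. Without both batch 2 libraries labelled knockout, values were 5.14 for SNHG5 and −0.082 for SNHG12 in the medium comparison of cells labelled knockout, and 0.059 for SNHG3 in the average. By genotype they then were −0.65 for GAS5, −0.41 for SNHG1, −0.65 for SNHG6, −0.029 for SNHG7 and −0.45 for ZFAS1 in serine/glycine-free medium, and −0.66 for GAS5, −0.76 for SNHG6, −0.31 for SNHG7 and −0.45 for ZFAS1 in complete medium. The interaction then was 0.0090 for GAS5 and −0.020 for SNHG12.

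Leaving out 1 library, the sign also changed in these ranges. In wild type they were GAS5 −1.13 to 1.29, SNHG1 −1.01 to 0.64, SNHG3 −0.95 to 0.0062, SNHG6 −0.67 to 0.59, SNHG7 −0.44 to 0.12, SNHG12 −0.57 to 0.44 and SNHG15 −0.17 to 0.26. In cells labelled knockout they were GAS5 −0.50 to 0.59, SNHG1 −0.19 to 0.57, SNHG5 −3.80 to 3.60, SNHG6 −0.47 to 0.68, SNHG7 −0.29 to 0.30 and SNHG12 −0.39 to 0.42. In the average they were GAS5 −0.54 to 0.67, SNHG1 −0.41 to 0.41, SNHG3 −0.31 to 0.16, SNHG6 −0.28 to 0.35, SNHG7 −0.23 to 0.070, SNHG8 −0.082 to 0.20 and SNHG12 −0.28 to 0.23. By genotype in serine/glycine-free medium they were GAS5 −1.11 to 1.31, SNHG1 −0.76 to 0.89, SNHG5 −0.93 to 5.64, SNHG6 −0.38 to 0.76 and ZFAS1 −0.28 to 0.98. By genotype in complete medium they were GAS5 −0.41 to 0.68, SNHG1 −0.69 to 0.066, SNHG3 −0.70 to 0.26, SNHG5 −6.52 to 0.88, SNHG6 −0.58 to 0.68, SNHG7 −0.22 to 0.38 and ZFAS1 −0.18 to 0.84. In the interaction they were GAS5 −1.25 to 1.18, SNHG1 −0.45 to 1.20, SNHG6 −0.49 to 0.77, SNHG7 −0.13 to 0.46, SNHG12 −0.43 to 0.58 and ZFAS1 −0.61 to 0.65.

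Beside the members, in the averaged comparison, leaving out 1 library gave GAS5-AS1 −0.14 to 0.15, PRDX3P2 −0.44 to 0.045, TRNAU1AP −0.012 to 0.40, SNORD12B −2.99 to 2.70 and ZNFX1 −0.41 to 0.046. GAS5-AS1 was also −0.014 with a pseudocount of 0.1 and −0.046 when centred, and PRDX3P2 was 0.15 without both batch 2 libraries labelled knockout. With adjusted p from 0.0341 to 0.0467, CARS, WDR43 and SLC3A2 were each called in 1 of 20 alternatives, and the other named genes not called as reported were called in none.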

Other observations

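Among snoRNA rows of other noncoding hosts, SNORA71A, an H/ACA box snoRNA row inside SNHG17, was at 14531 (serine/glycine-free) and 13884 (complete) FPKM in cells labelled knockout of batch 2, against 7189 and 6451 FPKM in wild type. In batch 1 it was at 4269 and 3754 FPKM in cells labelled knockout, against 5489 and 4221 FPKM in wild type. SNORA71C, inside the same host, was at 3652 and 3329 FPKM in cells labelled knockout, against 1713 and 1818 FPKM in wild type, in batch 2, and at 880 and 750 FPKM in cells labelled knockout, against 1329 and 1278 FPKM in wild type, in batch 1. Both rows were thus higher in cells labelled knockout in batch 2 and lower in batch 1, as were the members GAS5, SNHG6 and ZFAS1. Opposite signs in the batches were found in 19.5% of tested genes. The host SNHG17 was itself higher in cells labelled knockout in 4 of 4 pairs. SNORA71B, inside SNHG17 too, was mixed in batch 1, at 500 and 232 FPKM in cells labelled knockout, against 401 and 433 FPKM in wild type. The SNORA71A and SNORA71C rows were picked after their values were seen, other rows did not all share the pattern, and the difference was not tested.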
